A study of Caenorhabditis elegans with 4 samples.

Results

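NURF-1 is the Caenorhabditis elegans counterpart of BPTF, which gives the chromatin remodelling complex NURF its largest subunit. The peaks described here are all NURF-1 peaks on chromosome IV in the list that the authors deposited for the whole series. They were chosen by chromosome name alone, and they number 2058 of 11796 peaks. Chromatin came from wild-type N2 worms, a mixed population of males and hermaphrodites at the L3 larval stage, kept at 20 °C. Frozen ground worms were crosslinked with EGS, a long-arm crosslinker, for 20 minutes and with EGS plus formaldehyde for a further 10 minutes. Both groups share this genotype, strain and stage: 2 libraries were immunoprecipitated (ChIP) with an affinity-purified rabbit antibody to NURF-1, and 2 hold input DNA, whose values were not analysed here. Whole animals were used, so a peak may come from any tissue or from several, and it is not stated in the labels if the replicates were separate worm cultures, so their spread may be technical.

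NURF complexes slide nucleosomes by means of an ISWI-class ATPase, and their BPTF subunit carries domains that bind methylated and acetylated histone tails. In C. elegans, NURF-1 and the ATPase ISW-1 are known from vulval development, where their loss suppresses defects caused by loss of synMuv repressors. Worm chromosomes are holocentric, that is, they have no single centromere. Each autosome has a central domain rich in conserved and widely expressed genes, flanked by arms with more repeats, more recombination and more repressive chromatin near the nuclear envelope. Chromosome IV is also known for broad domains that hold most piRNA genes, whose small RNAs silence foreign sequence in the germline. Peaks are given by WormBase WS220 coordinates, the build named in the files, without gene names.

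The 3 lists differed in length before any comparison along the chromosome. On chromosome IV, 862 peaks were listed for replicate 1 and 2043 for replicate 2, beside the 2058 of the whole-series list. Read depth is unknown, since each peak comes with its position and a score of unstated scale, and with no read count. Scores are the authors' own and are ranked here within a list. Where scores of a site from different lists stand side by side, they have no common scale. The median score on IV was 10.08 in replicate 1 and 17.12 in replicate 2, so a gap between lists need not be a difference at the site. Intervals are 95% and cover counting error only, and peaks near each other are not independent. Across windows of 100 kb on IV, the variance of the peak count was 3.01 times its mean, where counting error alone would make them equal. The intervals of densities and their ratios are thus too narrow, and whether one includes equal density is not a test.

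Chromosome IV carried NURF-1 peaks in proportion to its length. It made up 17.4% of the nuclear length and held 17.5% of the nuclear peaks of the whole-series list. The corresponding share was 17.8% for replicate 1 and 17.4% for replicate 2. The density was 117.6 peaks per Mb (112.6 to 122.8), and peaks covered 0.944 Mb, or 5.40% of the chromosome. The other 5 nuclear chromosomes had a mean of 121.5 ± 35.6 peaks per Mb (SD, n = 5), from 87.0 on X to 161.1 on III, so IV lay inside their spread (exact permutation test of IV against the others, two-sided p = 1). Chromosome II, at 115.9 per Mb (110.6 to 121.4), was its nearest neighbour in density. With 6 chromosomes this exact permutation test cannot go below p = 0.167. It was run for 9 measures, and the adjusted p was 1 for every one of them.

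The peaks of chromosome IV varied widely in score and width. Scores ran from 1.52 to 349.34, with a median of 17.24 and quartiles of 6.95 and 62.2. Widths ran from 146 to 2315 bp, with a median of 340 bp and quartiles of 224 and 597 bp. Wider peaks scored higher (Spearman's rho 0.80 and Pearson's r 0.71 over 2058 peaks, which share their libraries). Median score on the other chromosomes ranged from 14.01 to 18.82 and median width from 329.5 to 361.5 bp, and IV lay inside both ranges (exact permutation test, two-sided p = 1 and 0.833). Peaks of 1200 bp or more numbered 83 on IV (4.03%), against 2.21 to 4.18% on the other chromosomes.

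The best-scored NURF-1 sites of IV were spread over the whole chromosome, and each of the leading 10 was found in both replicates. The first was IV:1658681-1659906 in the left arm, 1226 bp wide, with a score of 349.34 in the whole-series list, 285.82 in replicate 1 and 360.98 in replicate 2. The second, IV:4749379-4750486 in the centre, scored 345.16 in the whole-series list and had the best replicate 1 score of the chromosome, 359.61. The third, IV:654130-655469, scored 342.2, with 344.63 in replicate 1 and 354.96 in replicate 2. Each of these 3 peaks scored 285.82 or more in every list.

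The next ranks brought in the right arm. IV:11118715-11120463 in the centre scored 339.2. In the right arm, IV:17277149-17279339 scored 337.54 and IV:13881304-13882443 scored 334.25. The other members of the leading 10 were IV:6585182-6586144, IV:12390475-12391750 and IV:4389750-4390926 in the centre and IV:3293428-3295281 in the left arm, with whole-series scores from 323.59 to 332.71. All 10 were between 963 and 2191 bp wide, well above the median width. The third best peak of the right arm, IV:15570550-15571207, was narrower at 658 bp and scored 318.45 in the whole-series list and 328.06 in replicate 2, but 81.01 in replicate 1. Of the best-scored 20 peaks of IV, 5 lay in the left arm, 7 in the centre and 8 in the right arm. These zones held 26.0, 52.7 and 21.2% of all IV peaks. In the best-scored 25% of nuclear peaks, a larger set, the right arm of IV was the sparsest zone, at 17.9 peaks per Mb.

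Most peaks of chromosome IV were also replicate 2 peaks, and a smaller part were also replicate 1 peaks. Overlap of at least 1 bp with a replicate 2 peak was found for 1945 of 2058 peaks (94.5%, 93.4 to 95.4), and with a replicate 1 peak for 739 (35.9%, 33.9 to 38.0). Peaks in both replicates numbered 710 (34.5%, 32.5 to 36.6). Those in replicate 2 only numbered 1235 (60.0%), those in replicate 1 only 29 (1.41%) and those in neither 84 (4.08%). The other chromosomes had 26.7 to 36.8% of peaks in both replicates, with a mean of 33.9 ± 4.26% (SD, n = 5), and IV did not stand apart (exact permutation test, two-sided p = 1). In the other direction, 814 of the 862 replicate 1 peaks on IV (94.4%, 92.7 to 95.8) and 1944 of the 2043 replicate 2 peaks (95.2%, 94.1 to 96.0) overlapped a whole-series peak.

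Sites seen in both replicates tended to be wider and better scored. Their median score was 89.5 and their median width 675 bp. Peaks in replicate 2 only had a median score of 10.13 and a median width of 265 bp. Peaks in replicate 1 only had medians of 4.90 and 238 bp, and peaks in neither replicate had medians of 4.04 and 163 bp, close to the narrowest width in the list. An overlap of 1 bp is met more easily by a wide peak, and wider peaks scored higher, so part of this difference follows from the rule. When 50% of a peak had to be covered, 16.5% of IV peaks were in both replicates, against 34.5% at 1 bp. The plot of score against width shows these classes as overlapping clouds along one diagonal.

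**Figure D1:**
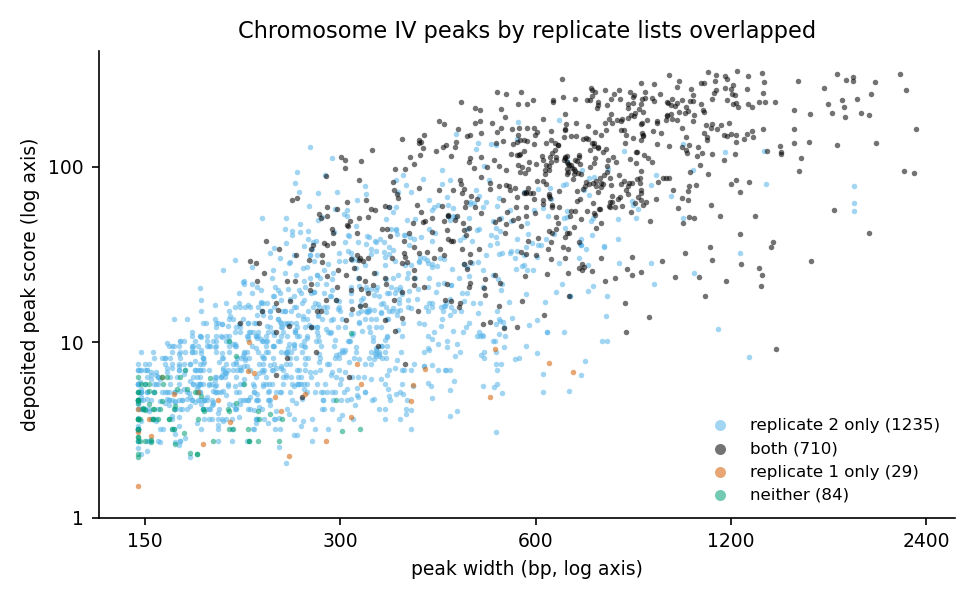
Deposited score (log axis) against width in bp (log axis) of the 2058 chromosome IV peaks of the whole-series list, each point 1 peak, coloured by the replicate lists it overlaps by at least 1 bp. The 710 peaks in both replicates lie toward the wide, well-scored end (medians 675 bp and 89.5). The 84 in neither lie toward the narrow end (medians 163 bp and 4.04), where many peaks in replicate 2 only lie as well.

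Recovery in replicate 1 followed the score. When all nuclear peaks of the whole-series list were ranked by score and cut into 10 equal groups, 196 of 199 IV peaks in the best group overlapped a replicate 1 peak (98.5%, 95.7 to 99.5). The share was 87.8% in the next group, 68.3% in the one after it, 43.9% for scores of 29.45 to 51.25, and 33.0% for scores of 17.27 to 29.38. In the 4 lowest groups, with scores up to 11.48, it lay between 2.36 and 6.25%, with no order among them beyond the intervals. Replicate 1 thus had a peak at nearly all of the strongest IV sites and at few of the weakest. That peak could itself be weak. Among the 206 best-scored IV peaks, replicate 1 scores ran down to 2.73. When 50% of a peak had to be covered, 18.0% of all IV peaks were shared with replicate 1, against 35.9% at 1 bp.

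**Figure D2:**
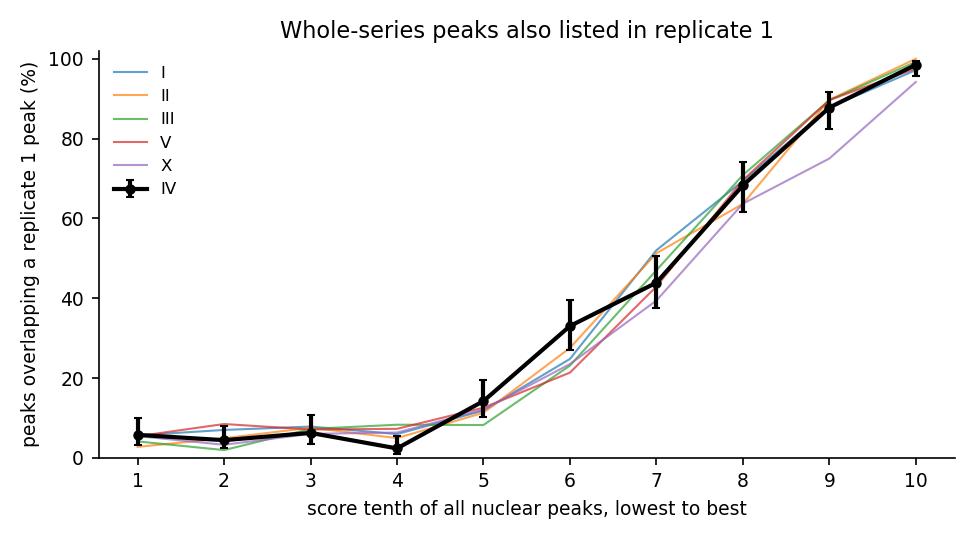
Percentage of whole-series peaks that overlap a replicate 1 peak, by score group of all nuclear peaks from the lowest to the best 10%, for chromosome IV (black, bars are 95% Wilson intervals) and the other 5 nuclear chromosomes (coloured lines). On IV the share runs from 5.76% in the lowest group to 98.5% in the best.

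The best-scored IV peaks without a replicate 1 peak were few. IV:6053214-6053866 scored 184.46 in the whole-series list and 199.35 in replicate 2. IV:51126-51689 scored 180.07 and 196.9, and IV:8301868-8302320 scored 153.64 and 161.06. These 3 were the only peaks among the best-scored 206 of the chromosome, those scoring 147.21 or more, that replicate 1 lacked. The best-scored peak in replicate 1 only, IV:11073583-11073799, scored 10.06, followed by IV:1476529-1477047 at 9.14 and IV:12024376-12025005 at 7.63. The best-scored peak in neither replicate, IV:10945769-10946079, scored 11.26, followed by IV:1477446-1477647 at 10.13 and IV:15080419-15080625 at 8.31. None of these 6 peaks scored above the chromosome's median of 17.24.

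The scores of the whole-series list followed those of replicate 2 closely. Over 1945 IV peaks in both of these lists the scores had a Spearman's rho of 0.98, against 0.71 over the 739 shared with replicate 1. These are unlike sets, with a median whole-series score of 19.88 in the 1945 and 83.04 in the 739, so the correlations are not directly comparable. Over the 710 peaks in both replicates, the replicate 1 and replicate 2 scores had a rho of 0.65. These points share their libraries, and the sources used here do not give the way in which the authors joined the replicates. Both ends were identical to those of a replicate 2 peak for 68 IV peaks, and to those of a replicate 1 peak for 0.

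Few whole-series peaks overlapped several replicate 1 peaks, and those few were wider, as a wide peak has more room. A single replicate 1 peak was overlapped by 672 whole-series peaks (median width 633 bp), 2 by 57 (median 1193 bp) and 3 by 10 (median 1564.5 bp). In replicate 2, 1926 whole-series peaks spanned a single peak, 17 spanned 2 and 2 spanned 3. The widest peak of IV, IV:10935234-10937548 (2315 bp), scored 165.17 in the whole-series list and 179.84 in replicate 2, while the better of its 2 replicate 1 peaks scored 3.56. IV:1738084-1740387 (2304 bp) scored 92.51 and held 2 replicate 1 peaks, and IV:11592662-11594900 (2239 bp) scored 275.02 and held 3, the best of them at 40.23.

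NURF-1 peaks were densest in the left arm of chromosome IV and sparsest in the right arm. The left arm, up to 3.896 Mb, held 536 peaks by their midpoints, the centre, up to 12.970 Mb, held 1085, and the right arm held 437. This gave 137.6 peaks per Mb in the left arm (126.2 to 149.7), 119.6 in the centre (112.6 to 126.9) and 96.6 in the right arm (87.8 to 106.1). The left arm was thus 1.42 times as dense as the right (1.25 to 1.62) and 1.15 times as dense as the centre (1.04 to 1.28). Peaks were clustered, so these intervals are too narrow, and the one against the centre already comes close to equal density.

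The same order held in each replicate list. Replicate 1 gave 55.7, 50.3 and 41.8 peaks per Mb in the left arm, centre and right arm, and replicate 2 gave 135.3, 119.4 and 95.7. The ratio of left to right arm was 1.33 in replicate 1 (1.09 to 1.63) and 1.41 in replicate 2 (1.24 to 1.61). Against the centre, the left arm ratio was 1.11 in replicate 1, with an interval of 0.94 to 1.31 that includes equal density, and 1.13 in replicate 2 (1.02 to 1.26).

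**Figure D3:**
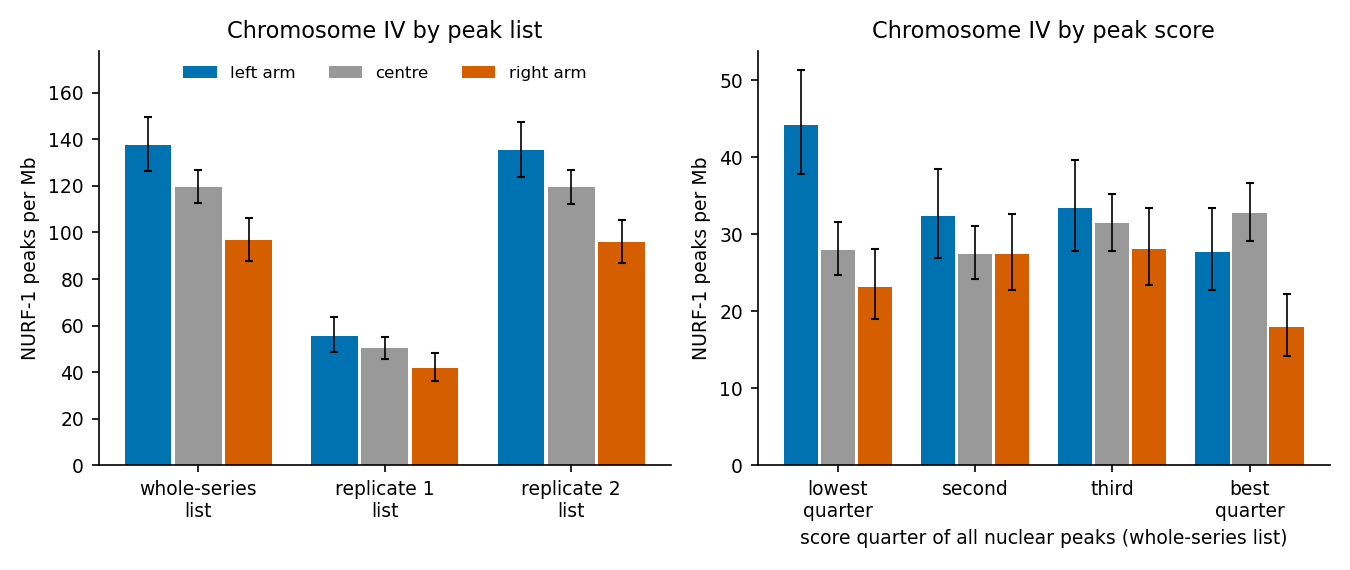
NURF-1 peaks per Mb in the left arm, centre and right arm of chromosome IV, in the 3 deposited lists (left panel) and in 4 equal score groups of all nuclear whole-series peaks (right panel); error bars are exact 95% Poisson intervals. The order left arm, centre, right arm holds in each list, and the lowest-scored group has 44.1 peaks per Mb in the left arm against 28.0 in the centre and 23.2 in the right arm.

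The left arm had more peaks per Mb, but its median score and median width in the whole-series list were the lowest of the zones. Median score was 13.65 in the left arm, 20.81 in the centre and 16.29 in the right arm. The upper quartile of score was 51.7, 73.9 and 50.8, so the arms were close to each other there. Median width was 285.5, 377 and 333 bp. Bases in peaks therefore made up a similar part of the left arm (5.65%) and the centre (5.88%), and a smaller part of the right arm (4.21%). In the replicate 1 list the median scores were 9.05, 10.86 and 9.72, and in replicate 2 they were 14.68, 21.28 and 14.72, so both arms lay below the centre in each.

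The surplus of the left arm over the centre lay mainly among low-scored peaks. Peaks of the lowest-scored 25% of the nuclear list, at 6.95 or less, numbered 44.1 per Mb in the left arm (37.8 to 51.3), 28.0 in the centre (24.7 to 31.7) and 23.2 in the right arm (19.0 to 28.1). In the best-scored 25%, above 66.59, the left arm had 27.7 per Mb (22.7 to 33.5), the centre 32.7 (29.1 to 36.7) and the right arm 17.9 (14.2 to 22.3). The left arm exceeded the right arm in each of the 4 score groups, though the intervals overlapped in the middle 2. Peaks in both replicates numbered 45.4 per Mb in the left arm (39.0 to 52.6), 42.0 in the centre (37.9 to 46.4) and 33.6 in the right arm (28.5 to 39.4). The share of peaks found in both replicates hardly varied by zone, at 33.0% (29.2 to 37.1), 35.1% (32.3 to 38.0) and 34.8% (30.5 to 39.4).

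Of the 9 measures in the whole-series list, only the tilt between the arms placed chromosome IV outside the range of the others. IV lay inside that range among the better-scored 50% of peaks, and narrower score groups were not compared across chromosomes. With each chromosome divided at the same fractions of its length as IV (22.3% and 74.1%), the ratio of left to right arm density was 1.42 on IV. It was 1.22 on V, 1.16 on I, 0.85 on X, 0.67 on II and 0.65 on III, with a mean of 0.907 ± 0.269 (SD, n = 5). By exact permutation this reached p = 0.167 (two-sided), the lowest value that the design permits, and the adjusted p was 1, so the difference did not pass. In the replicate 1 list IV was again the highest at 1.33, with the others from 0.65 to 1.11, and in the replicate 2 list it was the highest at 1.41, with the others from 0.63 to 1.26. Among the better-scored 50% of whole-series peaks, IV was inside the range: its ratio was 1.33, below the 1.43 of V (exact permutation test, two-sided p = 0.333). Chromosome II, nearly equal to IV in overall density, had the opposite tilt, with 85.2 peaks per Mb in its left part and 127.8 in its right part.

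**Figure D4:**
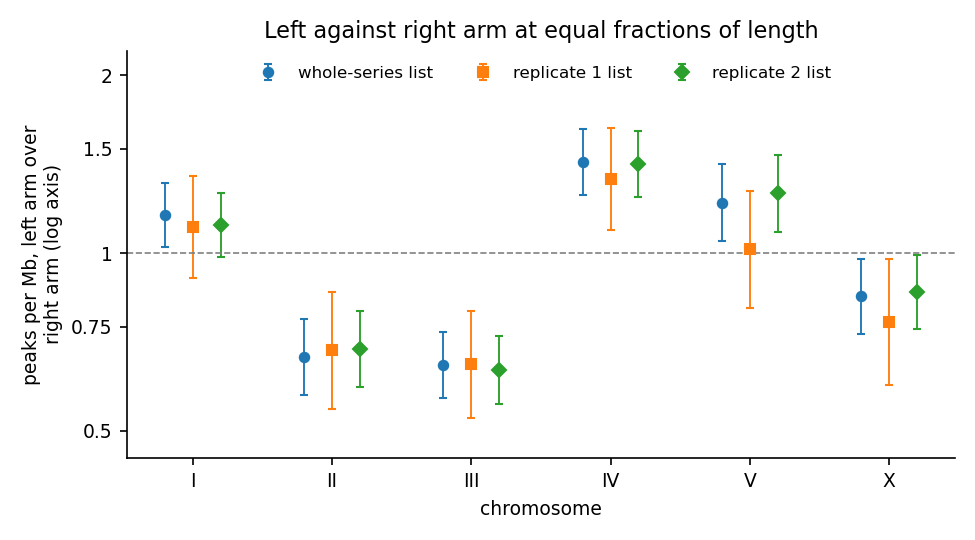
Ratio of left arm to right arm peak density (log axis) for each nuclear chromosome, divided at the same fractions of length as chromosome IV, in the 3 deposited lists; bars are exact 95% intervals from the counts and the dashed line marks equal density. Chromosome IV has the highest ratio in each list (1.42, 1.33 and 1.41).

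The centre of IV was little richer in peaks than its arms combined. The ratio was 1.03 on IV, against 0.95 to 1.45 on the other chromosomes, whose mean was 1.16 ± 0.184 (SD, n = 5; exact permutation test, two-sided p = 0.5). Among the better-scored 50% of peaks the ratio on IV was 1.21. The lower median score of both arms relative to the centre was also seen at these fractions on I, II and III, while on X both arms lay 1.77 to 1.83 above it and on V the left arm equalled it.

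Along 10 equal segments of the chromosome, each 1.75 Mb long, density was 140.1 peaks per Mb at the left end (123.1 to 158.7) and 82.3 at the right end (69.4 to 96.9). Between them it was 108.0 in the fourth segment, 134.3 in the seventh and 96.6 in the ninth, the lowest of the inner segments. The median score ran the other way at first, from 11.55 in the first segment to 26.01 in the fifth and 24.17 in the sixth. It was 16.1 in the seventh, 15.7 in the eighth, 20.71 in the ninth and 15.2 in the last. The fifth and sixth segments, with the highest median scores, and the peak-dense left end were thus different stretches of the chromosome.

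**Figure D5:**
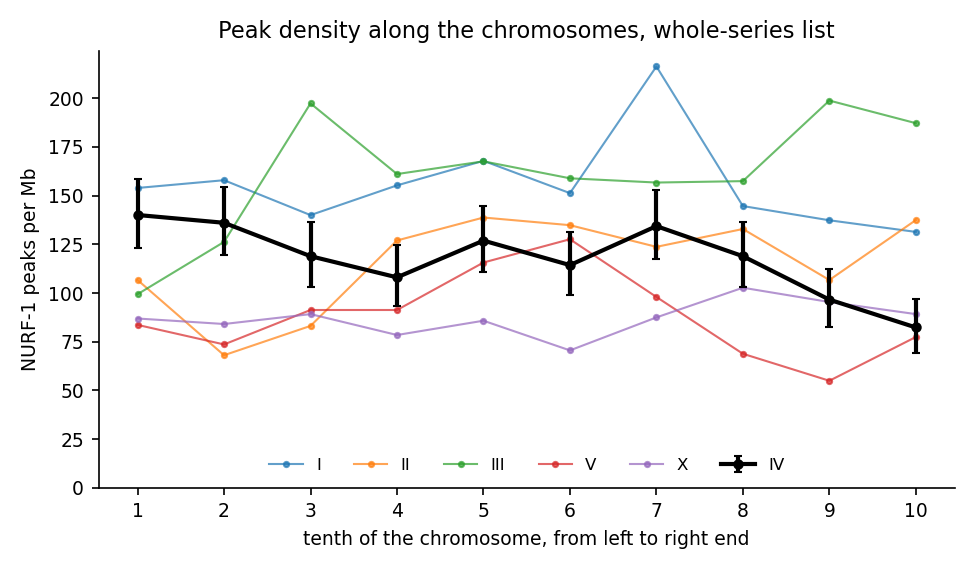
NURF-1 peaks per Mb in 10 successive equal segments of each nuclear chromosome, from the left to the right end, in the whole-series list; chromosome IV is black with exact 95% Poisson intervals. On IV density is 140.1 peaks per Mb in the first segment and 82.3 in the last.

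The right zone limit fell in a gap between peaks, and the left limit fell inside a peak. That peak, IV:3895781-3896023, was placed in the left arm by its midpoint and scored 12.2. The first after it, IV:4007675-4007902, scored 8.1. These flank one of the longest stretches without a peak. The last peak before the right limit, IV:12930777-12930982, scored 4.18, and the first after it, IV:12999162-12999420, scored 72.29. All 4 were in replicate 2 only.

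The broad piRNA domains of chromosome IV, taken from general knowledge as the rounded stretches 4.5 to 7.0 Mb and 13.5 to 17.2 Mb, held fewer NURF-1 peaks per length than the rest. They held 604 peaks, or 97.4 per Mb, against 128.7 per Mb elsewhere on IV, a ratio of 0.76 (0.69 to 0.83). The ratio was 0.80 in the replicate 1 list (0.69 to 0.92) and 0.75 in that of replicate 2 (0.68 to 0.82). The second stretch makes up most of the right arm, 3.7 of 4.52 Mb, so domain and arm cannot be told apart there. Within its own zone, the first stretch had 105.2 peaks per Mb against 125.0 in the rest of the centre (ratio 0.84, 0.73 to 0.97). The second had 92.2 against 116.5 in the rest of the right arm (ratio 0.79, 0.63 to 1.003), an interval that includes equal density. Median scores inside and outside were 21.55 and 20.80 in the centre and 15.39 and 16.69 in the right arm. The limits of these domains were first given on another build than WS220 and are approximate here. The intervals cover neither that nor the clustering of peaks. No other chromosome has these domains, so no test was possible, and piRNA genes themselves were not placed.

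At finer scale, windows of 100 kb on IV held a median of 11 peaks (quartiles 8 and 15). The fullest was 2600001 to 2700000 in the left arm, with 32 peaks in the whole-series list, 15 in replicate 1 and 32 in replicate 2. It was followed by 3300001 to 3400000, with 27, 15 and 26, and by 15000001 to 15100000 in the right arm, with 27, 15 and 22. Of the whole-series peaks in these windows, 15, 14 and 8 were in both replicates. The right arm window thus shared fewer of its sites than the left arm windows, and came closest to the 34.5% of all IV peaks. A single window of the 174 held no peak. Across windows the replicate counts had a Spearman's rho of 0.63 and a Pearson's r of 0.68, a description of windows that share both libraries.

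The longest stretch without a whole-series peak, IV:4927206-5063406, was 136.2 kb long and lay in the centre, with 0 replicate 1 peaks and 1 replicate 2 peak inside. The next, IV:3896024-4007674, was 111.7 kb long and held none in either replicate list. The third, IV:2497493-2599046 in the left arm, was 101.6 kb long, held 1 peak of each replicate list, and ended just before the fullest window. There, a sparse and a dense stretch of about 100 kb lay side by side.

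NURF-1 peaks of IV often had a close neighbour. Of the 2058, 890 (43.2%) had another peak within 1 kb, 1006 had their nearest neighbour between 1 and 10 kb away, and 162 (7.87%) had none within 10 kb. On the other chromosomes the share with a neighbour within 1 kb ranged from 37.4 to 51.0% (mean 43.2 ± 5.42%, SD, n = 5; exact permutation test, two-sided p = 1), and the share with none within 10 kb from 4.55 to 12.6%. In the replicate 1 list, 30.9% of IV peaks had a neighbour within 1 kb, above the 22.7 to 29.1% of the others (exact permutation test, two-sided p = 0.333). The median gap on IV was 3205 bp. By zone, 41.4% of left arm peaks (37.3 to 45.6), 45.2% of centre peaks (42.2 to 48.1) and 40.7% of right arm peaks (36.2 to 45.4) had a neighbour within 1 kb. The intervals overlapped, and the left arm, though denser, had no larger share of close neighbours than the centre.

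Close peaks scored somewhat lower than isolated ones. Median scores were 15.14 for peaks with a neighbour within 1 kb, 20.03 for those with one at 1 to 10 kb and 20.76 for those with none within 10 kb. Replicate 1 held 34.5% (31.4 to 37.7), 36.3% (33.4 to 39.3) and 41.4% (34.1 to 49.1) of them, with overlapping intervals.

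Runs of 3 or more peaks with gaps of at most 1 kb numbered 111 on IV and held 406 peaks (19.7%, against 17.6 to 26.4% on the other chromosomes). The longest, IV:5077978-5084256 in the centre, held 8 peaks with scores from 2.75 to 35.7, of which 0 were found in replicate 1 and 7 in replicate 2. The second, IV:15077098-15081817 in the right arm, held 7 weak peaks with scores from 2.94 to 10.57, of which 4 were found in replicate 1 and 1 in replicate 2. The third, IV:4467716-4474203, held 6 peaks with a best score of 94.87, 2 found in replicate 1 and 5 in replicate 2. None of these 3 runs had most of its peaks in both replicate lists.

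The ends of the chromosome carried few peaks. Only 14 peaks of IV had their midpoint within 100 kb of either end, against 19 to 48 on the other chromosomes. The first, IV:1-230, began at the first base and scored 37.84 in the whole-series list, 39.25 in replicate 1 and 30.78 in replicate 2. It was separated by 50.9 kb from the next. The last, IV:17493508-17493793, scored 58.89, with 57.23 and 45.79 in replicates 1 and 2, and lay 21.2 kb from the peak before it. Both end peaks were in both replicates although they were narrower than the median peak, at 230 and 286 bp.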

How the data were processed

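Per the submitters' processing notes, BWA was the aligner and ce10 the build. Peaks were called with MACS and given on WormBase WS220, per the source column and the file headers. The sources used here do not give the MACS version, its thresholds or any use of input. In 3 lists, covering replicate 1, replicate 2 and the series as a whole, the authors deposited a score of unstated scale for each peak.

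From these, peaks on chromosome IV were selected by name and marked as shared with a replicate list on overlap of at least 1 bp. Chromosome length was the last base of the last peak. Mitochondrial peaks were left out of nuclear totals. Zones were assigned by midpoint. Shares carry Wilson intervals, densities exact Poisson intervals and ratios of densities exact binomial ones, all at 95%. Chromosome IV was compared with the other 5 nuclear chromosomes by exact permutation, with Benjamini-Hochberg adjustment over 9 measures. Peaks were not treated as replicates, and the 2 ChIP lists were not tested against each other.

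Named peaks followed a rule: the 10 best-scored, the 3 best of each zone and replicate class, the 3 widest, those at chromosome ends and zone limits, and the 3 fullest windows, longest gaps and longest runs. The members and lists were chosen with earlier results of these data known, and the score groups, the 10 segments and the comparison with II were added after values were seen. Since the gene table given is on WBcel235, gene names, gene content and sequences were not used here. Overlap, zone and spacing functions were tested on simulated data. Software comprised SciPy 1.17.1, pandas 2.3.3, NumPy 2.4.6 and, for plots, matplotlib 3.10.9, under Python 3.11.15.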

Additional observations from a re-analysis of the deposited data

How the results depend on the processing

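Across 10 results, 40 alternatives were run: a single replicate list, the better-scored 50% of peaks, autosomes only, 100 kb at each end left out, 3 equal parts in place of the zone limits, first bases in place of midpoints, overlap of 50% of the peak, and other neighbour distances. Of them, 36 kept the direction of the difference from the other chromosomes, or, for the piRNA domains, the direction of the ratio. None of the tests passed 0.05 under any setting, which the design does not allow. Of the 4 that changed direction, 3 concerned differences close to 0 and the fourth the median width, which was 10.6 bp below the mean of the others in the whole-series list. With a single replicate list, the median score of IV was 10.08 to 17.12 (other chromosomes 10.2 and 16.7), and its median width 272.5 to 338 bp (263.7 and 351.2). With the better-scored 50%, the share of IV peaks in replicate 2 was 100%, against 99.9%. With a distance of 500 bp, the share with a close neighbour was 27.8%, against 27.9%. The cause was not tested. The ratio of left to right arm on IV was between 1.27 (3 equal parts) and 1.43, but its place outside the range of the other chromosomes ended with the better-scored 50%, where it was 1.33 against up to 1.43 on V (exact permutation p = 0.333, as with 3 equal parts). The ratio for the piRNA domains was between 0.75 and 0.80. The share of IV peaks in both replicates depended on the overlap required: 16.5% when 50% of the peak had to be covered, against 34.5% at 1 bp. The better-scored 50% of peaks gave 65.2%. No paired analysis was possible because the input libraries, which share replicate numbers with the ChIP libraries, were not analysed here. Without read counts, weak peaks could not be weighed by depth.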

Other observations

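Some chromosome IV sites stood very differently in the replicates. They were chosen after their values were seen, by the change in percentile among the 739 peaks shared with replicate 1. IV:8597434-8597894 in the centre, 461 bp wide, scored 233.23 in the whole-series list and 243.48 in replicate 2, but 3.47 in replicate 1. Its percentile among these peaks was 89.4 by whole-series score and 6.63 by replicate 1 score. IV:9873680-9874452 scored 224.17, with 240.87 in replicate 2 and 4.31 in replicate 1. IV:14837803-14838435 in the right arm scored 160.13, with 172.8 in replicate 2 and 2.73 in replicate 1.

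The sites that rose most in percentile in replicate 1 are given next. Choosing them in this way itself favours a low whole-series score. IV:13549328-13549595 in the right arm, 268 bp wide, had a replicate 1 score of 40.69, a replicate 2 score of 25.69 and a whole-series score of 29.55, and its percentile was 84.2 by replicate 1 score and 19.2 by whole-series score. IV:7441031-7441342 in the centre scored 32.62 in replicate 1 and 15.73 in replicate 2. IV:15409309-15409783 in the right arm scored 23.15 and 11.84.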
